A study of Mus musculus with 15 samples.

Results

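The beta 1 integrin subunit Itgb1 and 7 alpha subunits that pair with it (Itga1, Itga4, Itga5, Itga6, Itga8, Itga9 and Itga10) were followed through macrophage differentiation in colony-stimulating factor 1 (CSF1) and through exposure to interleukin 4 (IL4). The members were the rows whose gene symbol equals one of these names. All 8 were found among the 34245 genes of the differentiation table and among the 25965 genes of the IL4 table.

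Bone marrow cells came from male C57BL/6 mice of 8 to 10 weeks, and every group was grown in CSF1, the growth factor of the macrophage lineage. Precursors were the non-adherent cells after 2 days at 0.6 ng/ml CSF1 in 15% fetal calf serum, and immature macrophages had a further 4 days at 12 ng/ml in 10% serum. Mature macrophages had 1 day at 0.6 ng/ml, 2 days at 12 ng/ml and 7 days at 120 ng/ml. A separate table holds mature macrophages cultured on for 48 h in CSF1 at 120 ng/ml, either unstimulated or with 20 ng/ml IL4. CSF1 dose and days in culture change together between the first 3 groups, and between precursors and the later stages serum changes too, so these cannot be told apart. The precursor culture is defined by its failure to adhere and not by a sort.

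Integrins are membrane receptors made of 1 alpha and 1 beta chain, and the alpha chain sets which matrix protein or counter-receptor is bound. Beta 1 pairs with many alpha chains. In blood-forming cells the beta 1 receptors hold progenitors in the marrow stroma and let monocytes and macrophages attach to matrix, and an alpha chain reaches the cell surface only after joining a beta chain.

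There were 3 libraries in each of the 5 groups, with a mouse number in each title, and 7897769 to 22167294 reads assigned to genes in the 9 differentiation libraries and 2408531 to 4214266 in the 6 libraries of the IL4 table. Levels are CPM, read counts relative to library totals that were scaled by TMM, given for libraries 1, 2 and 3 in that order, and n = 3 in each group. Risen and fallen are written where edgeR's quasi-likelihood test gave a Benjamini-Hochberg adjusted p under 0.05 over all genes of its table. Changes are log2 fold change ± SE of that fit. In bulk RNA, fewer cells of a type and less RNA per cell cannot be told apart. The 2 tables were scaled separately, so no level is compared between them.

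The labelled cell types were checked against their markers. All 16 macrophage markers were detected in the differentiation groups, with summed levels of 8468 to 11280 CPM in precursors, 26760 to 49700 in immature and 46470 to 73780 in mature macrophages. Marker transcripts of other cells were present in the precursor libraries and lower in immature and mature macrophages, to unequal degrees. The 16 neutrophil markers summed to 15160 to 22530 CPM in precursors, 237 to 292 in immature and 2.69 to 5.66 in mature macrophages, with Mpo, Elane and Ly6g at 0 in the last. The 14 B and T cell markers summed to 315 to 437, then 2.44 to 2.94, then 0 to 0.536 CPM, with Cd3e at 0 from the immature stage. The 12 stem and progenitor markers went from 352 to 453 down to 3.64 to 8.50 CPM, with Kit and Flt3 at 0 in mature cells. The 12 megakaryocyte and platelet markers went from 384 to 888 down to 91.4 to 174 CPM, the 12 mast cell, basophil and eosinophil markers from 242 to 311 down to 7.25 to 9.49, and the 10 erythroid markers from 154 to 318 down to 0.405 to 0.936. The 14 fibroblast and stromal markers went from 21.2 to 22.9 down to 0.234 to 0.612 CPM, and the 10 endothelial markers from 147 to 239 down to 58.5 to 81.3. In the IL4 table the neutrophil markers summed to 13.1 to 26.4 CPM without and 13.9 to 21.2 CPM with IL4, and no B or T cell marker had a read. There the macrophage markers summed to 46840 to 62750 CPM without and 22830 to 24700 CPM with IL4, the megakaryocyte and platelet markers to 317 to 594 and 141 to 224, and the endothelial markers to 84.3 to 108 and 141 to 212, and the part of these shifts in the members' changes was not tested. The stem, erythroid and fibroblast markers stayed at or under 7.23 CPM, and the mast cell, basophil and eosinophil markers went from 0.986 to 4.95 up to 18.4 to 40.7 CPM, all from 1 detected gene of 12.

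The stretches before the start sites of 4 members are shown because their transcripts set the pattern reported here: the beta chain, the alpha chain that rose with IL4, the alpha chain with the steepest fall with IL4, and an alpha chain that declined while the beta chain rose. They are the 250 bases upstream of the start in RefSeq on GRCm38.p6, on the coding strand, and capitals mark the GC box, searched as GGGCGG on both strands.

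Itgb1 (chr8:128685404-128685653, plus strand): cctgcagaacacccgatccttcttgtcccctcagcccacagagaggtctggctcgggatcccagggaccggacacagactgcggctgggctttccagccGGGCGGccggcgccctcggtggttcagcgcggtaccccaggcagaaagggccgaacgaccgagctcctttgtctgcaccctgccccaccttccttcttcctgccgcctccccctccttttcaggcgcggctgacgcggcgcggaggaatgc

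Itga4 (chr2:79255176-79255425, plus strand): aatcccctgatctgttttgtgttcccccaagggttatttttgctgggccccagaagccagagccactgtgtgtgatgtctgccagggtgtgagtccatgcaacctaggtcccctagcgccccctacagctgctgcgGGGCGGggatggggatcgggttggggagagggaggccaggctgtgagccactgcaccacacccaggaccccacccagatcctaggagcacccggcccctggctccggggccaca

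Itga5 (chr15:103366792-103367041, minus strand): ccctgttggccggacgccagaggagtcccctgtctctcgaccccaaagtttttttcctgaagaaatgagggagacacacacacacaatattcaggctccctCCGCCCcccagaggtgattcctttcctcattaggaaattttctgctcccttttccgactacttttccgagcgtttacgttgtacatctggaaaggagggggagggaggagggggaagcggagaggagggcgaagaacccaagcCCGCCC

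Itga8 (chr2:12301945-12302194, minus strand): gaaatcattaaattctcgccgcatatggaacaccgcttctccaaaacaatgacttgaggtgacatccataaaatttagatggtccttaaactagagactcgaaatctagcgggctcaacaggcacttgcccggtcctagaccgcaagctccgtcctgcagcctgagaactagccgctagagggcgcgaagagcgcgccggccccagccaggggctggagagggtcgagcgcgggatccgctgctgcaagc

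The window of Itgb1 holds 1 GC box, 151 bases before the start, that of Itga4 holds 1 at 114 bases, that of Itga5 holds 2 at 149 and 6 bases, and that of Itga8 holds none. The windows of Itga1, Itga9 and Itga10, not shown here, hold none either. Of all 32851 windows of 250 bases, 32.7% hold that motif. The PU.1 sequence GAGGAAGT (in 2.44% of windows), the STAT6 motif, TTC and GAA with 4 bases between (5.85%), and TATAAA (12.4%) were in none of the 7 members with an entry, which says only that these letters are not in these windows. Itga6 had no entry, and the Itga9 entry starts 105002 bases inside the annotated gene, so it is not read as that gene's start.

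The first comparison sets immature macrophages against precursors. These groups differ in adherence, and also in CSF1 dose, days in culture, serum and marker transcripts of other cells. Such differences cannot be told apart here. Itgb1, Itga6 and Itga9 rose, and Itga1, Itga5, Itga8 and Itga10 fell, so 7 of 8 members were called, 3 higher and 4 lower. Over all 13359 genes tested 49.2% were called, 22.5% higher and 26.6% lower in immature macrophages. The members' median log2 fold change was -0.87, beside -0.07 over all genes.

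From immature to mature macrophages Itga8 and Itga9 rose and Itga1 fell, which makes 3 of 8 members called. The share over all genes was 14.9%, with 7.52% higher and 7.38% lower in mature cells, and the medians were 0.41 for the members and 0 for all genes. Across the whole course, mature against precursor, 5 of 8 members were called. Itgb1, Itga6 and Itga9 were higher, Itga1 and Itga4 lower, where 54.3% of all genes were called (25.8% higher and 28.5% lower). These 3 comparisons share libraries and are not independent of each other.

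**Figure D1:**
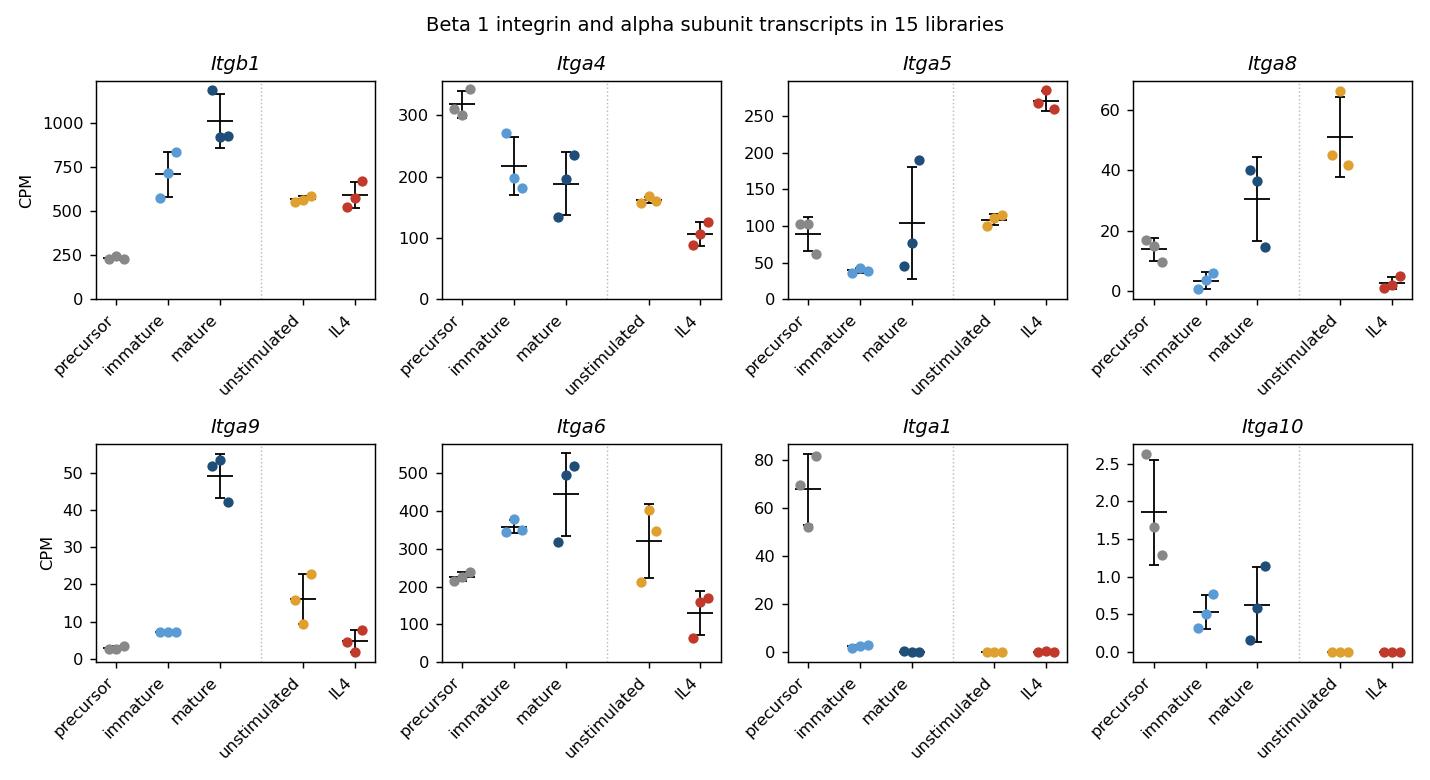
Level of each subunit in CPM (vertical axis, from 0, own scale in each panel) in the 3 libraries of each of the 5 groups; points are libraries and bars are mean ± SD (n = 3). The dotted line separates the 2 tables, which were scaled separately. Itgb1 climbs from 229 to 247 CPM in precursors to 920.4 to 1192 in mature cells, and Itga5 is the 1 alpha chain whose IL4 libraries all lie above the unstimulated ones.

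Itgb1, the shared beta chain (ENSMUSG00000025809, GRCm38 chromosome 8, 128685654 to 128733200), stood at 229, 247 and 229.6 CPM in precursors, 578, 717 and 835 in immature and 1192, 920.4 and 929 in mature macrophages. The 3 stages did not overlap. The rise into the immature stage was 1.59 ± 0.20 (adjusted p = 0.000129) and over the whole course 2.11 ± 0.21 (adjusted p = 1.6e-05, edgeR), a 4.31-fold higher level. The later step, 0.51 ± 0.20, was not called (edgeR adjusted p = 0.108).

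Among the receptors for fibronectin and for cell-bound VCAM-1, Itga4, which forms the very late antigen VLA-4 with beta 1, had 311, 301 and 343 CPM in precursors (ENSMUSG00000027009, chromosome 2, 79255426 to 79333123). Immature macrophages had 271, 199 and 181 CPM and mature ones 134, 197 and 236. All precursor libraries lay above all others, while the immature and mature libraries overlapped. Itga4 was lower in mature cells than in precursors by -0.75 ± 0.23 (edgeR adjusted p = 0.0184). That call was lost without precursor library 3 (adjusted p = 0.0567) or without mature library 1 (0.0594). Its difference of -0.55 ± 0.23 between immature cells and precursors was not called (adjusted p = 0.0699). It was called by DESeq2 (0.0465), by limma on the deposited log2 values (0.0165), in a fit of the 6 libraries alone (0.0320) and without immature library 1 (0.0310).

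Alpha 4 can also pair with beta 7. Itgb7 had 186, 186 and 268 CPM in precursors and 4.37, 3.51 and 4.90 CPM in mature cells, a change of -5.63 ± 0.36 (edgeR adjusted p = 1.13e-06). Itgb4, the other partner of alpha 6, stayed at 1.05 CPM or less in all 15 libraries.

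Itga5, the alpha chain of the classical fibronectin receptor (ENSMUSG00000000555, chromosome 15, 103344286 to 103366763), had 103, 102 and 62.0 CPM in precursors and 36.2, 42.9 and 39.1 in immature macrophages. Every immature library lay below every precursor library, and the fall was -1.18 ± 0.43 (edgeR adjusted p = 0.0405). Mature macrophages spread widely at 46.1, 76.3 and 191 CPM, and library 3 stood far above the others.

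The Itga5 call between immature cells and precursors was lost in 5 of 6 fits that left out a library. The adjusted p was 0.111 and 0.104 without precursor library 1 or 2, and 0.0903, 0.0838 and 0.0974 without immature library 1, 2 or 3. The higher Itga5 level of mature over immature cells, 1.41 ± 0.43, missed the call (edgeR adjusted p = 0.0513). DESeq2 called it (0.0106), as did the fit without a filter on low counts (0.0241) and the fit without mature library 1 (0.0123). Without mature library 3 the difference was 0.64 and not called (edgeR adjusted p = 0.128). Against precursors the mature level of Itga5 differed by 0.23 ± 0.42, or by -0.54 without mature library 3, neither of them called. The same library held 266 CPM of Itgax, the CD11c chain, beside 78.0 and 46.5 CPM in mature libraries 1 and 2.

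Itga8, a receptor chain for RGD-bearing ligands such as nephronectin and fibronectin (ENSMUSG00000026768, chromosome 2, 12106632 to 12301922), was lowest in the middle of the course. It had 16.9, 14.8 and 9.55 CPM in precursors, 0.630, 3.48 and 6.01 in immature and 40.2, 36.5 and 14.5 in mature macrophages. The immature libraries lay below all others, and mature library 3 lay between the precursor libraries. The fall was -2.08 ± 0.62 (edgeR adjusted p = 0.0170) and the later rise 3.22 ± 0.63 (edgeR adjusted p = 0.00715), a 9.34-fold difference. Without immature library 3, the highest of its group, these values were -2.75 and 3.89. Without immature library 1, the lowest, they were -1.54 and 2.69.

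The fall of Itga8 was lost without precursor library 1 (adjusted p = 0.0527) or immature library 2 (0.0504). Its mature level was not called against precursors (1.14 ± 0.56, edgeR adjusted p = 0.107), but was without mature library 3 (0.0397) and in the fit of those 6 libraries (0.0312).

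Itga9, whose product binds tenascin-C, VCAM-1 and osteopontin (ENSMUSG00000039115, chromosome 9, 118606690 to 118901003), climbed at both steps. Precursors had 2.63, 2.79 and 3.61 CPM, immature macrophages 7.33, 7.37 and 7.16, and mature ones 51.7, 53.4 and 42.2. No stage overlapped another. The steps were 1.28 ± 0.21 (edgeR adjusted p = 0.000632) and 2.75 ± 0.21 (edgeR adjusted p = 3.26e-05), and mature cells held 16.4-fold the precursor level (4.03 ± 0.22, edgeR adjusted p = 4.69e-07). By limma on the deposited log2 values the first step was 2.07 and the whole course 4.68, both still called. An antisense gene inside it, Gm2415, had 3.15 ± 1.56 CPM in precursors and 1.21 ± 0.32 in mature cells. The strand setting of the counting is not given in the sources used here, so the 2 genes' reads may not be fully told apart.

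Itga6, a laminin receptor chain (ENSMUSG00000027111, chromosome 2, 71745616 to 71858416), had 214, 225 and 239 CPM in precursors, 346, 378 and 351 in immature and 318, 495 and 519.6 in mature macrophages. Precursor libraries lay below all others and the later stages overlapped. Its level rose by 0.66 ± 0.20 into the immature stage (edgeR adjusted p = 0.0195) and was 0.97 ± 0.20 above precursors in mature cells (edgeR adjusted p = 0.00221). The first of these was lost with limma on the deposited log2 values (adjusted p = 0.0800) and without precursor library 1 (0.0681), precursor library 2 (0.0580) or immature library 2 (0.0652).

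The collagen receptor chain Itga1 (ENSMUSG00000042284, chromosome 13, 114953096 to 115101964) was a transcript of the precursor cultures. It had 69.7, 52.3 and 81.9 CPM there, from 1058, 1295 and 1020 reads. Immature macrophages had 1.73, 2.46 and 2.68 CPM, a fall of -4.90 ± 0.38 (edgeR adjusted p = 6.08e-06). Among the mature libraries 3 reads were found in library 1 and none in the others.

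By pooled reads the precursor level of Itga1 was 729-fold the mature one, with an exact 95% counting interval of 249 to 3535, and the immature level was 25.05-fold the mature one (8.21 to 124). Intervals and limits on reads cover counting error only. Itga1 fell in the same libraries in which the neutrophil, lymphoid, platelet and progenitor markers fell, and the part of those cells in the fall was not tested. Pelo lies within the Itga1 gene on the same strand and shares no exon base with it. Its level was 11.4 ± 1.32 CPM in precursors and 6.27 ± 0.18 in mature cells. Gm49395, a protein-coding gene on the same strand, shares 685 exon bases with Itga1.

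Itga10, another collagen receptor chain (ENSMUSG00000090210, chromosome 3, 96645584 to 96664519), was near the lower limit of the data. It had 2.63, 1.66 and 1.28 CPM in precursors (97 reads in all), 0.315, 0.512 and 0.767 in immature (15 reads) and 0.162, 0.585 and 1.15 in mature macrophages (22 reads). The fall into the immature stage, -1.84 ± 0.65, passed (edgeR adjusted p = 0.0369), but not with the mouse number as a block (0.0601) or with limma on the deposited log2 values (0.360).

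Leaving out a library also ended the Itga10 call: without precursor library 1 or 2 the adjusted p was 0.113 and 0.0678, and without immature library 1, 2 or 3 it was 0.136, 0.112 and 0.0549. Mature against precursor was not called (-1.53 ± 0.62, edgeR adjusted p = 0.0577) except without mature library 3 (-2.37, adjusted p = 0.0199), and was -0.38 by limma on the deposited log2 values. Gm42957 shares 1739 exon bases with Itga10 on the same strand and had 4.90 to 10.2 CPM in the differentiation libraries. Of the 31-base words of Itga10 transcripts, 31.8% also occur in other genes, so its counts are uncertain.

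**Figure D2:**
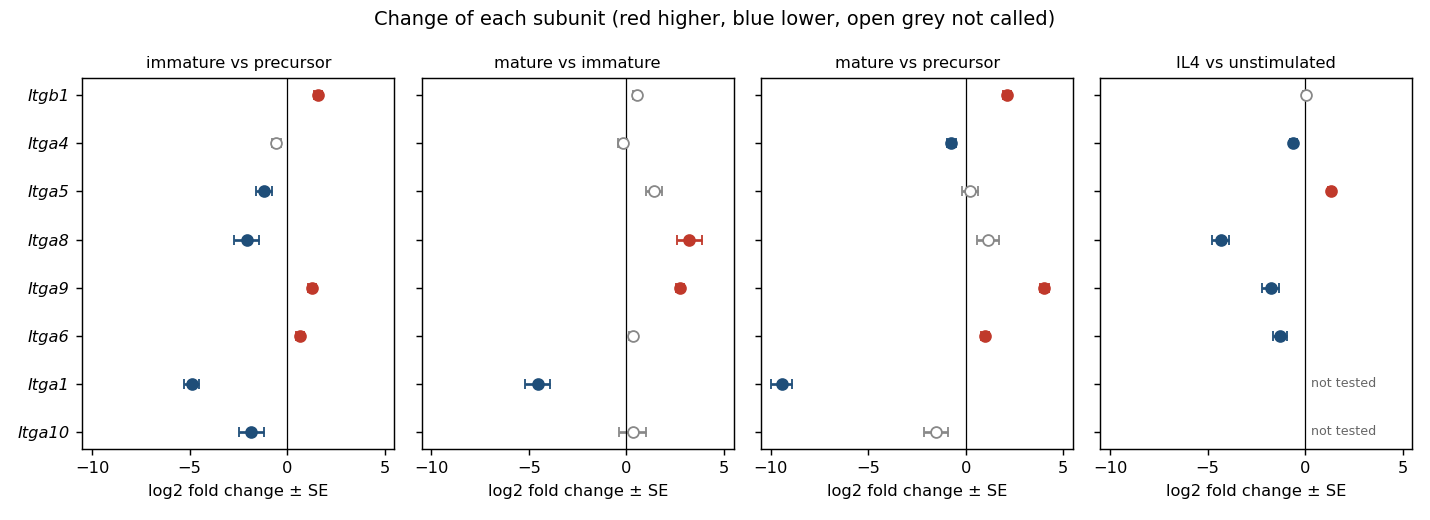
Log2 fold change ± SE of each subunit (edgeR) in the 4 comparisons, on 1 common horizontal axis; red and blue points passed an adjusted p of 0.05 as higher or lower in the first-named group, and open grey points did not. Itga9 lies to the right of 0 in all 3 differentiation panels and to the left with IL4, where Itga5 alone is to the right among the called subunits.

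The IL4 comparison asks how 48 h of that cytokine changed mature macrophages kept in CSF1. Of the 6 members tested 5 were called: Itga5 rose, and Itga4, Itga6, Itga8 and Itga9 fell, while Itgb1 was not called. Over all 8936 genes tested 20.8% were called, 10.5% higher and 10.3% lower with IL4. With mouse number as a replicate block 2883 genes were called in place of 1855, and the same 5 members were among them. The members' median log2 fold change was -0.95, beside 0.01 over all genes.

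Itga5 had 101, 110 and 116 CPM in unstimulated and 268, 285 and 259 CPM in IL4 libraries, a 2.48-fold difference. The groups did not overlap, and each IL4 library exceeded the unstimulated library of its mouse number. The rise was 1.31 ± 0.16 (edgeR adjusted p = 0.00017) and was called in every alternative run.

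Itgb1, its beta chain, had 552, 566 and 585 CPM without and 527, 573 and 672 CPM with IL4. The groups overlapped, and the difference was 0.06 ± 0.16 (edgeR adjusted p = 0.866).

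Itga8 had 45.05, 66.3 and 41.7 CPM in unstimulated libraries and 0.803, 1.99 and 4.94 CPM with IL4, from 522 and 24 reads in all. The fall of -4.33 ± 0.43 (edgeR adjusted p = 4.95e-05) left all IL4 libraries far below the unstimulated ones. It was called in every alternative run, at -5.20 without IL4 library 3, the highest of its group, and -3.85 without IL4 library 1, the lowest.

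Itga9 had 15.7, 9.48 and 22.9 CPM without and 4.55, 1.99 and 7.90 CPM with IL4, so the groups did not overlap. It fell by -1.76 ± 0.43 (edgeR adjusted p = 0.0129), a call that was lost without unstimulated library 3 (0.0564). Its levels followed the mouse number, lowest in mouse 2 and highest in mouse 3 in both groups. With the block the adjusted p was 1.52e-05.

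Itga6 had 211, 403 and 347 CPM without and 62.7, 158 and 169 CPM with IL4. All IL4 libraries lay below all unstimulated ones, and both groups were lowest in mouse 1. The fall was -1.31 ± 0.35 (edgeR adjusted p = 0.0217) and was lost without unstimulated library 2 (0.102) or 3 (0.0582). With the mouse number as a block it was -1.37 (edgeR adjusted p = 5.36e-06).

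Itga4 had 157, 168 and 161 CPM without and 88.4, 106 and 127 CPM with IL4, again without overlap. The fall, -0.60 ± 0.18, was the smallest of those called (edgeR adjusted p = 0.0348, or 0.00497 with the mouse number as a block). It was lost in 5 of 6 fits that left out a library, at adjusted p of 0.0575, 0.0822 and 0.0741 without unstimulated library 1, 2 or 3 and 0.113 and 0.119 without IL4 library 1 or 2. Cerkl lies on the opposite strand and shares 1124 exon bases with Itga4. Its level was 1.46 ± 0.25 CPM without and 2.19 ± 0.71 CPM with IL4. As the strand setting of the counting is not given, reads from the shared bases may not be told apart.

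The collagen receptor chains were not tested here. Itga1 had 0 reads in the unstimulated libraries and 1 read in IL4 library 2. Itga10 had 0 reads in all 6, and 3 reads over a group, the limit that a count of 0 allows, would be 0.279 CPM without and 0.306 CPM with IL4. No fold is given for either.

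Levels of different subunits were compared as CPM per kb of merged exons (GENCODE M21). By this length Itgb1 was the highest member in every group. It stood at 57.7 ± 2.5 CPM per kb in precursors, 174 ± 31.5 in immature and 248 ± 37.9 in mature macrophages. It had 139 ± 4.1 in unstimulated and 145 ± 18.2 in IL4-treated cells. In none of the 5 groups did its libraries overlap with those of the next subunit by this length. Per kb of the longest coding sequence, Itga4 stood at 1.048, 0.942 and 1.157 of the Itgb1 level in the precursor libraries. The place of Itgb1 above Itga4 in precursors thus depends on the length used. The order below Itgb1 changed between groups.

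In precursors the CPM per kb of Itga6 (25.1 ± 1.4) and Itga4 (22.8 ± 1.6) overlapped and lay above Itga5 (18.1 ± 4.8). Itga1 (3.65 ± 0.80) and Itga8 (1.86 ± 0.51) were lower, and Itga9 (0.392 ± 0.068) and Itga10 (0.358 ± 0.134) overlapped at the bottom. In immature cells Itga6 (39.7 ± 1.9), Itga4 (15.5 ± 3.4), Itga5 (7.98 ± 0.68) and Itga9 (0.947 ± 0.015) followed each other without overlap. Below them Itga8 (0.458 ± 0.365), Itga1 (0.123 ± 0.027) and Itga10 (0.102 ± 0.044) each overlapped with the neighbour.

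Mature macrophages had Itga6 at 49.2 ± 12.2 CPM per kb, overlapping Itga5 (21.2 ± 15.5), which overlapped Itga4 (13.52 ± 3.7). Itga9 (6.39 ± 0.78) stood above Itga8 (4.13 ± 1.89), with Itga10 (0.122 ± 0.095) and Itga1 below. In unstimulated cells of the IL4 table the order of the CPM per kb was Itga6 (35.5 ± 10.9), Itga5 (22.1 ± 1.5), Itga4 (11.6 ± 0.4), Itga8 (6.92 ± 1.82) and Itga9 (2.09 ± 0.88), and the first pair overlapped. With IL4 it was Itga5 (54.9 ± 2.7), Itga6 (14.4 ± 6.5), Itga4 (7.66 ± 1.38), Itga9 (0.626 ± 0.386) and Itga8 (0.350 ± 0.289). There Itga5 stood clear of all other alpha chains, while Itga6 overlapped Itga4 and Itga9 overlapped Itga8. These orders are by merged exon length. Per kb of the longest coding sequence, Itga4 made more of the summed alpha level than Itga5 in mature and unstimulated cells. The shares were 23.8 ± 0.4% against 12.1 ± 6.2% in mature and 25.9 ± 4.1% against 17.0 ± 2.2% in unstimulated cells.

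**Figure D3:**
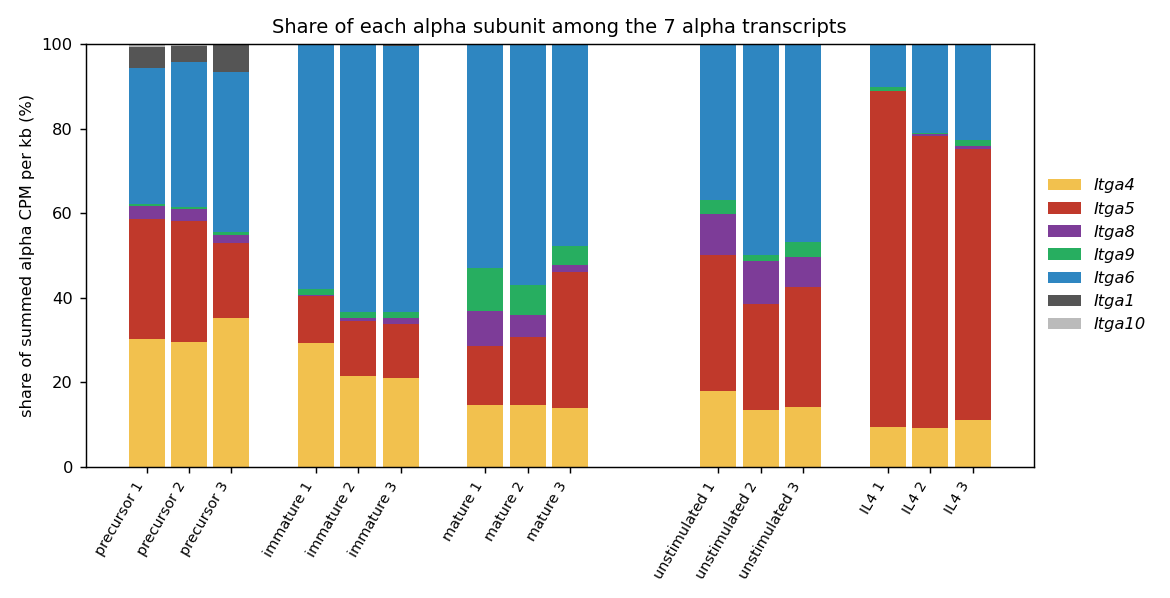
Share of each alpha chain in the summed CPM per kb of the 7 alpha chains (vertical axis, 0 to 100%), 1 bar for each of the 15 libraries. Blue Itga6 is the widest band in all immature, mature and unstimulated libraries, and red Itga5 in all 3 IL4 libraries.

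As shares of the summed alpha CPM per kb, Itga6 made 32.2, 34.3 and 37.8% in precursor libraries, 57.8, 63.0 and 62.9% in immature and 53.0, 56.9 and 47.7% in mature ones. The Itga4 share went from 30.1, 29.6 and 35.1% over 29.3, 21.4 and 20.99% to 14.5, 14.6 and 13.97%. Itga9 made 0.464 to 0.670% of the sum in precursors and 4.55 to 10.1% in mature cells. The later stage thus had a larger part of Itga6 and Itga9 and a smaller part of Itga4.

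With IL4 the Itga5 share was 79.5, 69.2 and 64.1%, against 32.3, 25.1 and 28.6% in unstimulated libraries. The Itga6 share was 10.2, 21.01 and 22.8% against 37.0, 50.03 and 46.9%. These shares depend on the length used: per kb of the longest coding sequence Itga5 made 53.6 ± 8.8% with and 17.0 ± 2.2% without IL4, and Itga4 exceeded Itga6 in precursors (45.6 ± 2.0% against 30.7 ± 1.4%).

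The ratio of the summed alpha chains to Itgb1, per kb, was 1.31, 1.20 and 1.25 in precursors, 0.468, 0.378 and 0.302 in immature and 0.227, 0.427 and 0.531 in mature macrophages. Precursors lay above both later stages without overlap, and the later stages overlapped. The log2 difference was -1.73 for immature and -1.75 for mature cells against precursors. The exact two-sided permutation p was 0.1 in each, the smallest that 3 against 3 libraries allow, and 0.2 after adjustment over the 4 comparisons. Mature and immature cells differed by -0.02 (exact permutation p = 1.0).

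The ratio was 0.468, 0.644 and 0.572 in unstimulated and 0.528, 0.594 and 0.498 in IL4-treated cells. The groups overlapped, with a log2 difference of -0.05 (exact permutation p = 0.8, adjusted 1.0). That small difference depends on the length used. Per kb of the longest transcript it was -0.33 and per kb of the longest coding sequence -0.39 (exact permutation p = 0.2 in each, adjusted 0.267), with overlapping groups. By coding length the ratio was 0.722, 1.0 and 0.880 without and 0.609, 0.728 and 0.636 with IL4, lower in each IL4 library than in the unstimulated library of its mouse number.

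**Figure D4:**
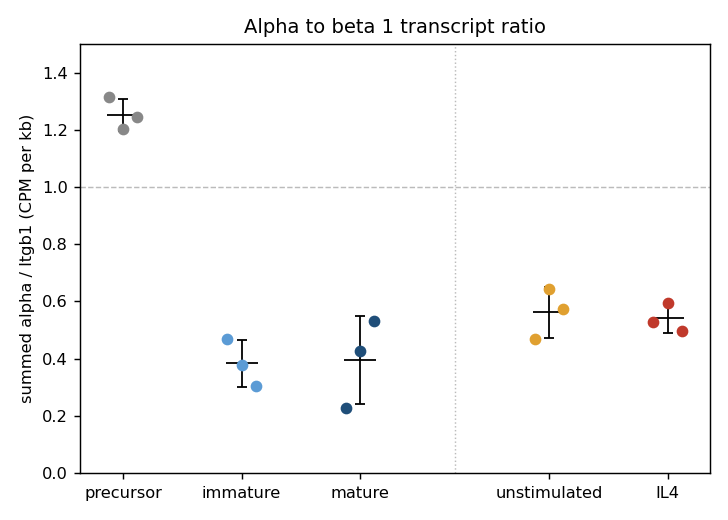
Ratio of the summed CPM per kb of the 7 alpha chains to that of Itgb1 (vertical axis, from 0) in each library, with mean ± SD (n = 3); the dashed line marks a ratio of 1 and the dotted line separates the 2 tables. By merged exon length, as drawn, the precursor libraries lie at 1.20 to 1.31 and all other libraries below 1, at 0.227 to 0.644. Per kb of the longest transcript unstimulated library 2 has 1.002, so the place relative to the dashed line depends on the length used.

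Genes whose log2 CPM most resembled a member's over the 9 differentiation libraries were sought among 8738 genes with a mean of at least 10 CPM. These values describe points that share 3 groups. For Itgb1 they were Asph, Prmt2, Impact, Fggy and Osbpl8 (Pearson r = 0.997, 0.996, 0.995, 0.993 and 0.993). Osbpl8, a lipid transfer protein, went from 225 over 960 to 1391 CPM.

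For Itga1 the closest were Glipr2, Serpinb1a and Sept5 (r = 0.999, 0.997 and 0.996), and Serpinb1a, an inhibitor of neutrophil proteases, went from 50.4 to 0.133 CPM. For Itga9 they were Stk3, Pdgfb and Cd72 (r = 0.993, 0.990 and 0.989), and Cd72, an inhibitory C-type lectin, went from 48.1 over 88.3 to 431 CPM. For Itga5 they were Slc7a8, E2f3 and Prag1 (r = 0.953, 0.948 and 0.932), low at the immature stage like Itga5 itself.

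For Itga4 they were Phc3, Sik3 and Leng8 (r = 0.984, 0.977 and 0.975), for Itga6 Prune2, Rhot1 and Pdlim5 (0.978, 0.971 and 0.970), for Itga8 Zfp367, Gclc and Bysl (0.970, 0.963 and 0.961) and for Itga10 Il1rap, Dhx37 and Slfn9 (0.982, 0.979 and 0.978). No member was among the closest genes of another. Between members r with Itgb1 was 0.84 for Itga6, 0.86 for Itga9, 0.09 for Itga8, -0.23 for Itga5, -0.76 for Itga10, -0.89 for Itga4 and -0.94 for Itga1.

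Ligands that beta 1 integrins bind changed in both directions in the same cultures. Of 32 ligand and matrix genes 15 were tested in differentiation. In immature cells 6 were higher and 6 lower than in precursors, where 49.2% of all genes were called. In mature against immature cells it was 2 and 2 (14.9% of all genes), and over the whole course 7 and 6 (54.3%). Their median log2 fold changes were 0.05, 0.28 and 1.17, beside -0.07, 0 and -0.05 over all genes.

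Fn1, fibronectin, the ligand of alpha 5 beta 1, fell from 474 ± 40.9 CPM in precursors to 0.546 ± 0.549 in immature cells (edgeR adjusted p = 3.94e-06). Thbs1, thrombospondin 1, fell from 998 ± 246 in precursors to 97.9 ± 62.3 in immature and 0.818 ± 0.571 CPM in mature cells. Lamc1, a laminin chain, rose from 15.8 ± 4.8 over 67.6 ± 3.3 to 117 ± 17.0 CPM, and Lama3, another, from 0.202 ± 0.225 to 19.8 ± 6.4 CPM at the first step. Spp1, osteopontin, a ligand of alpha 9 beta 1, rose from 2215 ± 388 CPM in immature to 6195 ± 1308 in mature cells (edgeR adjusted p = 0.0319), a call lost by limma on the deposited log2 values (0.121) and without any 1 immature library or mature library 2 or 3 (0.0540 to 0.0909). The second-step call of Lamc1 (edgeR adjusted p = 0.0392) was lost without any 1 immature library or mature library 1 or 3 (0.0702 to 0.116), by limma (0.0792) and with the mouse number as a block (0.0709).

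With IL4 1 of 8 ligand genes tested rose and 3 fell, where 20.8% of all genes were called (median -0.24, beside 0.01). The 1 that rose was Fn1, from 0.160 ± 0.139 to 60.9 ± 51.5 CPM (edgeR adjusted p = 0.000435). By pooled reads, 597 against 2, this is 327-fold, with an exact 95% counting interval of 90.2 to 2710. The fitted log2 difference of 8.10 was 7.33 without IL4 library 3 and 7.00 by limma on the deposited log2 values. Nid2, nidogen 2 of basement membranes, fell from 36.1 ± 1.8 to 1.86 ± 0.22 CPM, and Lama3 from 6.63 ± 1.25 to 1.498 ± 0.89. Itga5 and its ligand Fn1 were both higher with IL4, and the laminin receptor chain Itga6 and the laminin chain Lama3 both lower. Itga4 and Itga8, also fibronectin receptor chains, went the other way from Fn1 (-0.60 ± 0.18 and -4.33 ± 0.43). From precursors to mature cells Fn1 fell by -10.56 ± 0.73, while Itga5 was not called (0.23 ± 0.42). A link between receptor and ligand levels was not tested.

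Of 18 integrin subunits outside the 8 members, 11 were tested in differentiation. In immature cells 1 was higher and 8 lower (49.2% of all genes called), in mature against immature cells 5 and 2 (14.9%), and over the whole course 3 and 6 (54.3%). Their medians were -3.30, 0.78 and -1.64, beside -0.07, 0 and -0.05 over all genes. Itga2b (also in the platelet marker list) and Itgb3, the platelet pair, fell into the immature stage by -4.84 ± 0.39 and -4.36 ± 0.62, and Itgal, the alpha chain of LFA-1, by -3.87 ± 0.50. Itgb7 fell by -3.61 ± 0.33 and Itga2b by pooled reads 56.4-fold (95% interval 18.9 to 277) from the immature to the mature stage, while Itgax rose by 4.20 ± 0.57, or 3.14 without mature library 3. Over the whole course Itgb5, a partner of alpha V, rose by 1.75 ± 0.18. With IL4 4 of 8 tested rose and none fell in the edgeR fit (0 to 1 in the alternatives), beside 20.8% of all genes called. They were led by Itgb3 (4.18 ± 0.26), Itgax (6.56 ± 0.57, or 7.44 without unstimulated library 2) and Itgb2 (1263 ± 178 to 3559 ± 342 CPM).

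Among further alpha partners of beta 1 outside the 8 members, Itgav, which pairs with several beta chains, had 73.6 to 111 CPM in precursors, 97.1 to 155 in immature, 238 to 752 in mature, 97.2 to 222 in unstimulated and 87.0 to 209.8 in IL4-treated cells. It is not part of the summed alpha ratio. Itga2 had 3.67 to 11.3 CPM in precursors and at most 0.473 CPM later, and Itga3 and Itga7 did not exceed 1.65 CPM in any library. Itga11 had 0 reads in all 15 libraries.

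Genes of proteins that bind integrin tails or switch integrins on were called at shares near those of all genes. Of 23 tested 8 were higher and 4 lower in immature cells than in precursors (49.2% of all genes called), 2 and 3 in mature than in immature cells (14.9%), and 9 and 5 over the whole course (54.3%). Their medians were 0.21, 0.03 and 0.01, beside -0.07, 0 and -0.05 over all genes. Rasgrp2, an activator of Rap1, fell from 96.1 ± 20.4 CPM in precursors over 4.13 ± 0.48 to 1.07 ± 0.63. Parvg, a parvin of blood cells, fell from 220 ± 7.3 over 33.9 ± 13.2 to 13.01 ± 7.4 CPM. Kank2, a talin-binding protein, rose from 7.18 ± 0.97 to 46.2 ± 7.1 CPM at the first step. Tns1, tensin 1, which binds beta tails, fell from 70.8 ± 16.1 CPM in immature to 6.01 ± 2.55 in mature cells. Lims2, a partner of integrin-linked kinase, went from 0.481 ± 0.281 to 5.72 ± 5.76 CPM at that step (edgeR adjusted p = 0.0383). That call was lost without immature library 1, 2 or 3 (0.0657 to 0.140), and the second-step call of Parvg without immature library 2 or 3 or mature library 1 or 2 (0.0850 to 0.118).

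With IL4 4 of 20 tail-binding genes rose and 2 fell, where 20.8% of all genes were called (median -0.10, beside 0.01). Flnc, a filamin, rose from 0.628 ± 0.892 to 92.7 ± 52.0 CPM, Lims2 rose from 3.08 ± 1.26 to 23.4 ± 8.5, and Tns1 fell from 20.4 ± 3.8 to 3.45 ± 0.43 CPM.

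Of 29 kinases and adaptors tested, 6 were higher and 15 lower in immature cells than in precursors, beside 22.5% higher and 26.6% lower over all genes. In mature against immature cells it was 6 and 1 (7.52% and 7.38% of all genes), and over the whole course 7 and 11 (25.8% and 28.5%). Their medians were -0.67, 0.07 and -0.47, beside -0.07, 0 and -0.05 over all genes. In the alternatives the counts for mature against immature cells ranged from 2 to 8 higher and from 0 to 7 lower. Fgr, a Src-family kinase, fell from 219 ± 25.5 CPM in precursors over 6.96 ± 2.001 to 3.89 ± 1.82, and Nedd9, a docking adaptor, from 147 ± 29.0 to 5.14 ± 1.31 CPM at the first step. Lpxn, the adaptor leupaxin, rose from 63.1 ± 8.8 over 225 ± 11.4 to 306 ± 72.2 CPM. In mature against immature cells Actn1, an actin crosslinker of adhesions, rose by 1.27 ± 0.18 and Ptk2b, the kinase Pyk2, by 1.09 ± 0.19. Nedd9 rose again by 1.29 ± 0.31 there, a call lost without immature library 1 or 2 or mature library 1 or 2 (adjusted p 0.0527 to 0.0814).

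With IL4 10 of 26 kinases and adaptors rose and 5 fell, where 10.5% of all genes rose and 10.3% fell (median -0.01, beside 0.01). Actn1 rose from 202 ± 21.8 to 645 ± 148 CPM, Vcl, vinculin, from 49.0 ± 4.6 to 127 ± 7.5 and Cav1, caveolin 1, from 2.36 ± 0.67 to 26.4 ± 6.7 CPM. Vinculin and alpha-actinin link integrin adhesions to actin.

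Genes of integrin endocytosis and recycling were called higher (10) or lower (2) among 19 tested in immature cells, where 22.5% of all genes were higher and 26.6% lower. In mature against immature cells 1 was higher and 1 lower (14.9% of all genes called), and over the whole course 12 and 3 (25.8% and 28.5% of all genes). Their medians were 0.54, 0.28 and 0.81, beside -0.07, 0 and -0.05 over all genes. Vps26a, a retromer subunit, rose from 84.99 ± 2.6 to 213 ± 10.5 CPM and Rab5a, of early endosomes, from 40.1 ± 3.1 in precursors to 100.5 ± 13.2 in mature cells. Acap1, which takes part in beta 1 recycling, fell from 122 ± 26.8 CPM in precursors over 1.97 ± 0.54 to 0.348 ± 0.476, and Rab11fip1 from 93.5 ± 9.5 over 20.3 ± 2.1 to 27.8 ± 3.2 CPM, both below precursors. Commd3 rose by 0.60 ± 0.16 at the second step, a call lost without any 1 immature library or mature library 1 (adjusted p 0.0520 to 0.134) and with the mouse number as a block (0.0629).

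With IL4 2 of 16 of these genes rose and 2 fell, a share near the 20.8% of all genes (median -0.20, beside 0.01). Dab2, a clathrin adaptor that takes up beta 1 integrins, fell from 4309 ± 457 to 995 ± 198 CPM (edgeR adjusted p = 4.08e-05) and Swap70 by -1.03 ± 0.17. Rab11fip1 rose by 0.78 ± 0.23, a call lost without any 1 of the 6 libraries (adjusted p 0.0543 to 0.144) and by DESeq2 (0.153).

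In the authors' deposited tables of called genes 7 members appear for immature against precursor, 4 for mature against immature, 6 for mature against precursor and 4 for IL4. The authors' deposited tables hold Itga5 for mature against immature (FDR 0.0359) and Itga8 for mature against precursor (FDR 0.0188), which were not called here. Itga4, called here with IL4, does not appear in the authors' deposited table of that comparison.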

How the data were processed

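Messenger RNA of 15 bone marrow culture libraries was sequenced by Ion Torrent after column extraction with DNase, per the labels' protocols. Per the submitters' processing notes, HISAT2 2.0.5 and edgeR (no version) were used and the builds GRCm38.p6 and GRCm39.p6 are named. For the counting program and its strand setting the sources used here give nothing. What the authors deposited are 2 tables of raw read counts by gene, log2 RPM (log2 of reads scaled to a common total) of the same genes, and lists with adjusted p-values (FDR, a p-value column). Not used were 3 further columns of the differentiation data, the authors' group means. No row lacked a gene name.

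Counts were fitted here in R 4.3.3 with edgeR 4.0.16: filterByExpr by group at a minimum count of 10, TMM, glmQLFit and glmQLFTest without covariates, separately for the 9 and the 6 libraries, with Benjamini-Hochberg adjustment over 13359 and 8936 genes. The fit was tested on simulated data. Where rows share a symbol the one with the most reads was used. Levels between genes used merged exon lengths of GENCODE M21, whose gene positions on GRCm38 match the deposited rows of the members apart from the outer ends of Itga1, Itga5 and Itga8 in the IL4 table. The alpha to beta 1 ratio was compared by exact permutation of libraries. P-values measure the spread between these libraries only.

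The members and lists were chosen with earlier results of these data known. All 8 members are described. From each pathway list at most 3 called genes are named for each comparison, those of lowest p that reach 5 CPM in the higher group, and for each member the 3 genes (5 for Itgb1) of most similar pattern. Marker lists are given by summed CPM. Alternatives were RLE scaling, DESeq2 1.42.0, no filter, a filter at 1 CPM in 3 libraries, limma 3.58.1 on the deposited log2 values, the 6 compared libraries alone, the mouse number as a block, each library left out, and other gene lengths for the ratio.

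The titles number the mice 1 to 3 in every group, which pairs libraries by label, while the columns with or without IL4 are headed by numbers of another kind that no source explains. In the IL4 table deviations from the group mean correlated by 0.175 to 0.591 between libraries of 1 mouse number and by -0.487 to 0.247 between others. In the differentiation table the values were -0.129 to 0.165 and -0.128 to 0.139.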

Additional observations from a re-analysis of the deposited data

How the results depend on the processing

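Of 383 fits of single members under alternatives, 340 kept the direction and the side of the threshold, 28 lost a call, 10 gained one and 5 changed sign, none of the last on a called value. The sign changes were Itga5 in mature against precursor (-0.029 with limma, and -0.539 to 0.589 when 1 library was left out), Itgb1 with IL4 (-0.123 with limma, and -0.046 to 0.135 when 1 library was left out) and Itga10 in mature against immature (-0.535 to 0.791 when 1 library was left out). The lowest of these came without mature library 3, IL4 library 3 and mature library 3. When 1 library was left out, the members called ranged from 3 to 7 for immature against precursor, 3 to 4 for mature against immature, 4 to 7 for mature against precursor and 2 to 5 for IL4. Fewer libraries also give a test less to estimate the spread from. With the replicate block the members called were 6, 3, 5 and 5 in that order, and the loss of Itga10 was the 1 call it changed. DESeq2 gave 8, 4, 5 and 5. The limma fit shifted the median of all genes from -0.07 to 0.10 for immature against precursor.

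The alpha to beta 1 ratio depends on the gene length. Per kb of the longest transcript its mean was 1.86 in precursors, 0.641 in immature, 0.619 in mature, 0.850 in unstimulated and 0.669 in IL4-treated cells, and per kb of the longest coding sequence 2.29, 0.682, 0.625, 0.867 and 0.658, beside 1.25, 0.383, 0.395, 0.561 and 0.540. Precursors stayed above both later stages without overlap under each length. The log2 difference with IL4 went from -0.05 to -0.33 and -0.39. Depth limits Itga10 throughout and Itga1 after the precursor stage.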
